A study of Homo sapiens with 6 samples.

Results

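Open chromatin around 7 genes of the epithelial to mesenchymal transition, VIM, CDH1, CDH2, ZEB1, ZEB2, SNAI2 and TWIST1, is described here in H1155 cells, a line from a human lung carcinoma. The measure was ATAC-seq, which marks open DNA through the places where a transposase can insert adapters. The windows of the 7 genes held 61 of the 149765 open regions of the series. Epithelial to mesenchymal transition is the switch by which epithelial cells lose their junctions and take on a migratory, mesenchymal form. E-cadherin, encoded by CDH1, holds epithelial cells together. Vimentin, encoded by VIM, and N-cadherin, encoded by CDH2, are the intermediate filament and the adhesion molecule of mesenchymal and neural cells. ZEB1, ZEB2, SNAI2 and TWIST1 are transcription factors that drive the switch, and the ZEB and SNAI factors repress CDH1 by binding E-boxes, for which CAGGTG is the preferred form. Carcinoma cells are known to move along this axis in both directions.

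The study compared 3 libraries of H1155 cells that express a chimera with 3 libraries of control H1155 cells, each group labelled as biological triplicates and prepared by the Omni-ATAC protocol. The titles call the chimera libraries TA. The sources used here do not give the composition of the chimera, the promoter that drives it, what the control cells carry or whether the cells are 1 clone. The series title speaks of epithelial behaviour, which is the question these genes bear on. The deposited lists hold open regions of 1 cell line and no expression values, so no marker of the line's identity was checked.

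Members were all peaks of the 6 lists that overlap a window of each gene span with 50 kb on either side. The windows were given in hg19 as VIM on chromosome 10 from 17.22 to 17.33 Mb, CDH1 on chromosome 16 from 68.721 to 68.919 Mb, CDH2 on chromosome 18 from 25.481 to 25.807 Mb and ZEB1 on chromosome 10 from 31.557 to 31.869 Mb. ZEB2 was taken on chromosome 2 from 145.092 to 145.328 Mb, SNAI2 on chromosome 8 from 49.78 to 49.884 Mb and TWIST1 on chromosome 7 from 19.105 to 19.207 Mb. Peaks that shared at least 1 bp were merged into regions, and a region was called in a library if any of its peaks overlapped it. The 61 member regions were built from 265 peaks. The ZEB2 window held 24 of the regions, CDH1 9, SNAI2 8, CDH2 6, TWIST1 6, VIM 5 and ZEB1 3. Every library had a call in 22 of the 61 regions (36.1%, against 37.8% of all regions), and 17 had a call in a single library (27.9%, against 29.7%). In bulk cells, a weaker peak can mean fewer cells with the region open or less open chromatin per cell, which cannot be told apart.

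The submitters' processing notes name GRCh38, whereas the windows were given in hg19, and the coordinates of the lists were read as hg19. Of 264 starts of other genes within 2 Mb of the members, 145 lay within 1 kb of a region called in all 6 libraries once moved by the offset between the hg19 and the GRCh38 position of the member itself, against 18 at their GRCh38 positions. Around CDH1 the counts were 87 and 15 of 111 starts, and no neighbouring start was at hand for SNAI2. At the 5′ ends of the members themselves, 6 of 7 had a peak within 2 kb in some library at the hg19 position and 3 of 7 at the GRCh38 position. CDH1 went the other way, with a peak in 0 libraries at its hg19 and in 6 at its GRCh38 position. SNAI2 had one in 6 libraries at both, and ZEB1 in 5 at the hg19 and 4 at the GRCh38 position. The gene spans are known to the nearest 1 kb only, and positions relative to a 5′ end carry that error. A plus sign marks a distance into the gene or past its 3′ end, and upstream means before the 5′ end.

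The value given for a region is the authors' fold, taken from the strongest peak in the region. It was read as the pileup of reads at the summit over the local background of the same library, with 1 added to each. Genome-wide, the lists held 94484 to 99654 peaks in chimera libraries and 85730 to 109321 in control libraries. The median fold over the 56679 regions called in all 6 libraries was 6.65, 7.24 and 6.71 in chimera libraries 1, 2 and 3, and 7.80, 6.31 and 8.22 in control libraries 1, 2 and 3. Control 3 therefore gave the highest folds and the longest list and control 2 the lowest and the shortest. Summit pileups of the member peaks, recovered from fold and p, ran from 11 to 142 reads with a median of 31. By library the medians were 30, 24 and 33 in chimera libraries 1, 2 and 3, and 34, 31 and 42.5 in control libraries 1, 2 and 3. Such pileups come from called peaks only and are not a measure of library depth. Total read counts were not used here.

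Promoter sequences describe the DNA at annotated starts of some members, which need not be the 5′ ends described next. RefSeq's GRCh38.p14 table held 4 of the 7 members, VIM, CDH2, ZEB1 and ZEB2. The most upstream start of each is printed from 250 bases before to 50 after the start, 5′ to 3′, with CAGGTG or its reverse complement CACCTG in capitals. In GRCh38.p14 they lie at chr10:17227991-17228290 on the plus strand for VIM, chr18:28177081-28177380 on the minus strand for CDH2, chr10:31318167-31318466 on the plus strand for ZEB1 and chr2:144520070-144520369 on the minus strand for ZEB2. These positions cannot be set beside the hg19 positions of the regions.
VIM: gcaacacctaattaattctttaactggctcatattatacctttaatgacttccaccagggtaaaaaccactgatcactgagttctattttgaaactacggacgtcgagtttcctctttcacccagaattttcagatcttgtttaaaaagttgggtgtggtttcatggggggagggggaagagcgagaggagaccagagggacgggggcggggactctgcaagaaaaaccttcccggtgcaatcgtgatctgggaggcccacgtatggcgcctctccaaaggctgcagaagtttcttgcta
CDH2: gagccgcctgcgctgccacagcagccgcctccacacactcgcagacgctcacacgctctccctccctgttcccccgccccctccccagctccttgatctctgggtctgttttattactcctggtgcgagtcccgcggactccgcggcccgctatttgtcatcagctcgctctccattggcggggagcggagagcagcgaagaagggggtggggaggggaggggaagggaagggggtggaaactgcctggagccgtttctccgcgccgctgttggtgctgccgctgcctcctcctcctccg
ZEB1: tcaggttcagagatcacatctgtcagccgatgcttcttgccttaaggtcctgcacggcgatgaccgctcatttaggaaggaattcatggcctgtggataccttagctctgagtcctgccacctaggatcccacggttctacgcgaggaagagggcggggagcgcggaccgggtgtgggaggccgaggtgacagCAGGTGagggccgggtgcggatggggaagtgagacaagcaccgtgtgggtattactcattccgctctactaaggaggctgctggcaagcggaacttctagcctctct
ZEB2: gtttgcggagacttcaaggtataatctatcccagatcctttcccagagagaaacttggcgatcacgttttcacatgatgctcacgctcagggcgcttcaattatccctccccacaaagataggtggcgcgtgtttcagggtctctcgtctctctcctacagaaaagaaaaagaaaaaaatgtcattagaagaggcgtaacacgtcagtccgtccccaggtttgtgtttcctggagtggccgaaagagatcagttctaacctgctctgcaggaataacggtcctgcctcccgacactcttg
Only the ZEB1 stretch holds the E-box, at 1 place, and 2 of the 7 ZEB1 starts in the table hold it. The motif occurs in 20.6% of the 35116 promoters of that length. The CDH2 stretch is the richest of the 4 in C and G, at 67.0%, with 23 CpG. ZEB1 follows at 58.3% with 17 CpG, ZEB2 at 49.0% with 14 and VIM at 48.0% with 10, against a median of 58.7% and 14 CpG over all promoters. A match of letters is a description of the sequence and not evidence of binding.

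CDH1, the epithelial member, had no peak within 2 kb of its hg19 5′ end in any of the 6 libraries, and the values of its window overlapped between chimera and control libraries. Open chromatin lay on both sides of that end, in 5 regions called in all 6 libraries. The nearest upstream one, 4.36 kb before the gene at chr16:68765899-68766636, had folds of 7.79, 10.8 and 8.39 in chimera libraries and 12.1, 5.47 and 10.3 in control libraries. The nearest one inside the gene, at +7.13 kb and chr16:68778134-68779139, had folds of 7.89, 7.92 and 9.14 in chimera libraries and 12.6, 6.72 and 13.2 in control libraries. Both were named after their values were seen, because they flank the 5′ end. In both regions the chimera folds lay inside the control range, with control 2 the lowest of the 6.

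The strongest CDH1 region inside the gene span lay at +23.4 kb, at chr16:68794425-68795398, with folds of 11.0, 13.4 and 10.5 in chimera libraries and 13.9, 8.66 and 15.5 in control libraries. Past the 3′ end, at +106 kb and chr16:68877064-68878312, folds were 11.4, 13.3 and 11.4 in chimera libraries and 15.3, 9.15 and 11.5 in control libraries. The region 32.2 kb upstream, at chr16:68738183-68738785, had folds of 9.44, 10.6 and 7.02 in chimera libraries and 10.2, 9.27 and 14.8 in control libraries. The groups overlapped in all 3 regions. The last of them is the one that lies within 2 kb of the GRCh38 number of the CDH1 start, so the absence of a peak at the 5′ end holds only if the lists are in hg19. The GRCh38 table lists the adhesion gene CDH3 and TANGO6 among the genes within 50 kb of CDH1, so not every region of the window need belong to CDH1. Peaks in the window numbered 6.33 ± 1.15 in chimera and 5.67 ± 1.15 in control libraries (SD, n = 3 each; exact permutation test, two-sided, p = 1). Covered length was 4.16, 3.21 and 3.44 kb in chimera libraries and 3.16, 2.78 and 4.60 kb in control libraries, also with overlap.

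**Figure D1:**
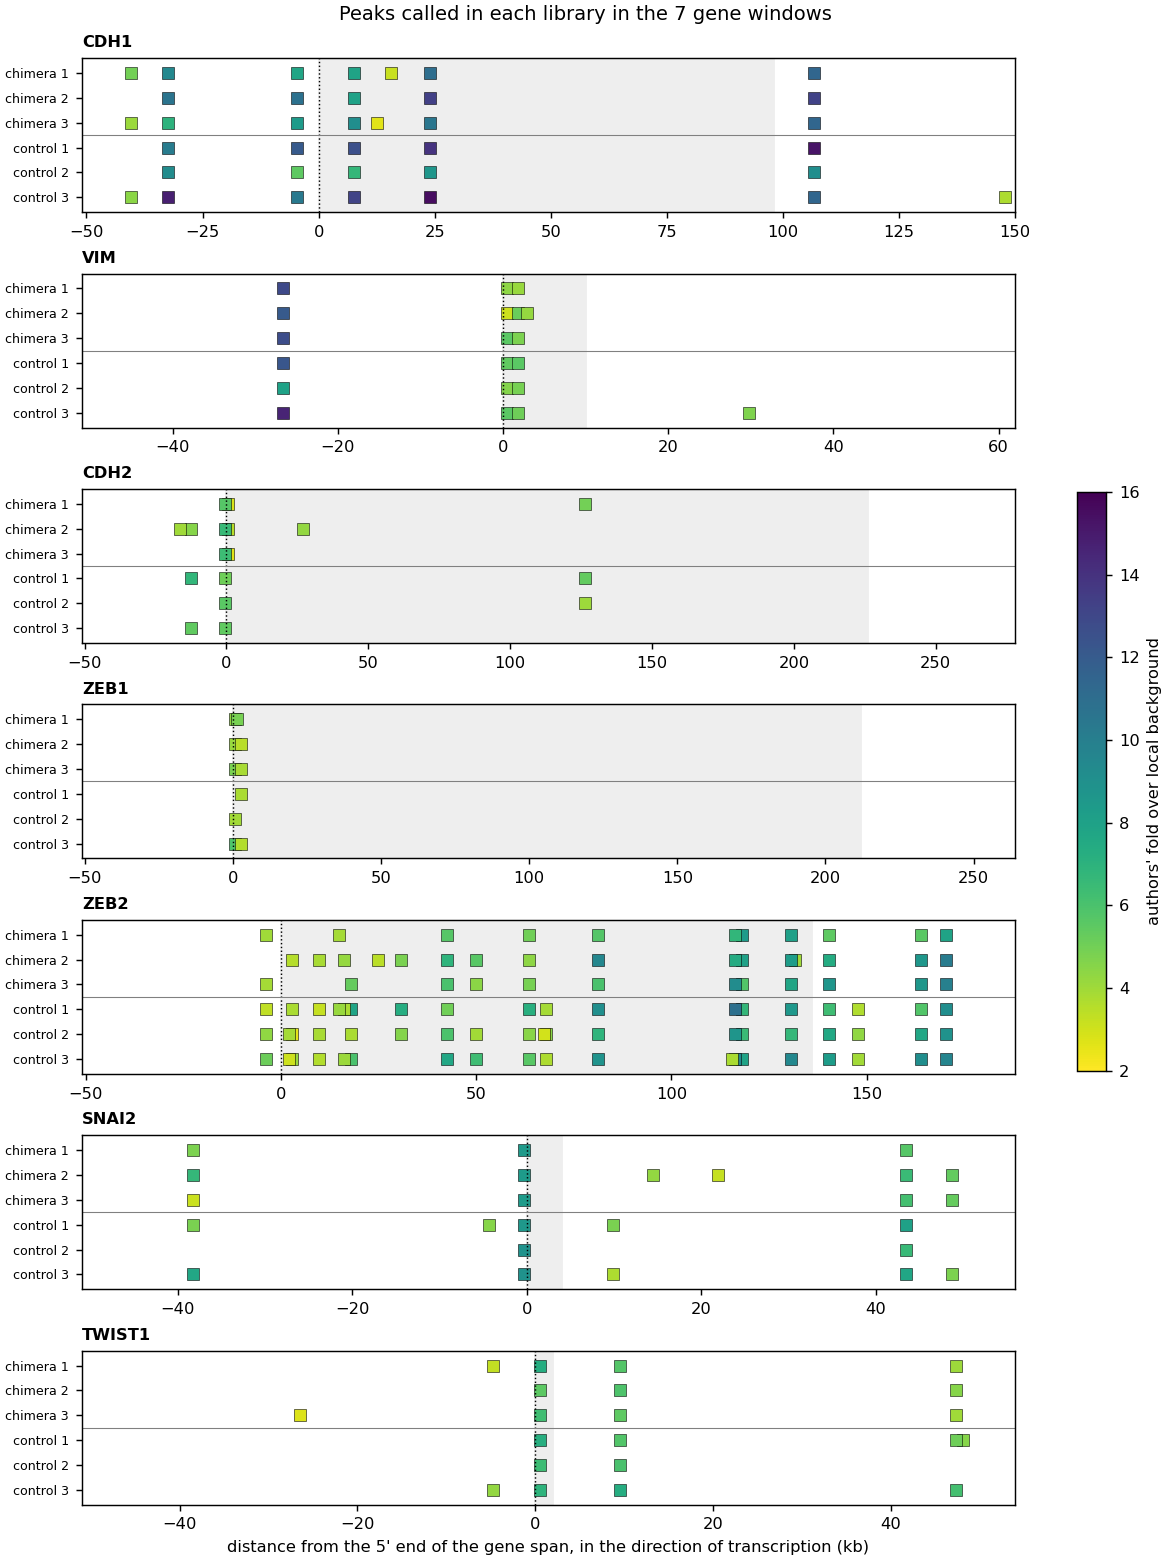
Peaks called in each library (rows, chimera above control) by distance from the 5′ end of the gene span (kb, in the direction of transcription). Colour gives the authors' fold and the grey band the gene span. CDH1 has none at its hg19 5′ end, ZEB1 has them only near its 5′ end, and ZEB2 has 24 regions spread over its window.

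VIM was open at its 5′ end in every library. The first region there, at +0.138 kb and chr10:17270138-17270903, had folds of 4.40, 3.04 and 5.58 in chimera libraries and 5.39, 4.57 and 5.59 in control libraries. The next, at +1.01 kb and chr10:17271008-17272716, had folds of 4.18, 5.22 and 4.75 in chimera libraries and 5.58, 4.89 and 5.07 in control libraries. The groups overlapped in both. The strongest region of the window was not at VIM but 26.1 kb upstream, at chr10:17242863-17243908, with folds of 12.9, 12.1 and 12.7 in chimera libraries and 12.2, 7.96 and 14.6 in control libraries. The GRCh38 table lists the tRNA methyltransferase gene TRDMT1 within 50 kb of VIM. After centring each library this region had a log2 difference, chimera over control, of 0.27 ± 0.13 (SE), the second highest of the 22 tested, which did not pass (limma, adjusted p = 0.452).

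Length covered by peaks in the VIM window was 2.29, 2.55 and 2.64 kb in chimera libraries and 2.79, 2.68 and 3.08 kb in control libraries. The groups did not overlap, by a margin of less than the spread within either group (exact permutation, two-sided, p = 0.1, the smallest that 3 against 3 allows). For background the genome was cut into tiles of 200 kb, of which 12228 had at least 3 regions; the windows are 102 to 326 kb long. Of these tiles 4.4% were covered less in every chimera than in every control library, as were 2 of the 7 windows, VIM and ZEB2, and 3.98% were covered more, as was none of the windows. The difference of -0.353 kb was -0.227 kb with flanks of 20 kb and -0.153 kb with flanks of 5 kb (exact permutation p = 0.5 and p = 0.7), and -0.666 kb when every peak had to reach a −log10 q of 10 (exact permutation p = 0.4). The number of VIM peaks overlapped, at 5, 7 and 4 in chimera and 6, 5 and 7 in control libraries.

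CDH2, the mesenchymal cadherin, carried the only region of the 7 windows called in all 3 chimera and no control library. It lay inside the gene, 0.448 kb from the 5′ end at chr18:25756116-25756552, with folds of 2.77, 3.44 and 2.61 in chimera libraries. Such regions made up 0.621% of all regions, so 1 of 61 is not a result about these genes. It was also the only member called in 2 or more chimera and no control libraries, against 2.78% of all regions. The calls were weak, at −log10 q of 3.41, 4.89 and 3.17, and the nearest control peaks began 0.165, 0.42 and 0.113 kb away. Those belonged to the wide region over the 5′ end itself, at chr18:25756665-25758598, and with peaks up to 1 kb apart merged no such region was left.

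That wide region was called in all 6 libraries. Its folds were 5.68, 6.57 and 6.40 in chimera libraries and 5.07, 5.57 and 5.41 in control libraries. Every chimera value lay above every control value, as in 2.63% of the 56679 regions called in all libraries. After centring the groups overlapped, with values of 0.854, 0.907 and 0.953 in chimera and 0.651, 0.883 and 0.658 in control libraries, as a ratio to the median of the library. None of the 22 member regions lay above in every chimera library once centred, against 9.5% of all such regions. The log2 difference was 0.32 ± 0.17 (SE), the highest of the 22 tested, and did not pass (limma, adjusted p = 0.516). With the mean instead of the strongest peak of each region it was 0.01.

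The rest of the CDH2 window, of 326 kb, was sparsely open. A region at +126 kb (chr18:25630535-25630810) had a fold of 4.99 in chimera 1, and of 5.38 and 4.06 in controls 1 and 2. A region 12.4 kb upstream (chr18:25769432-25769708) had a fold of 4.55 in chimera 2, and of 6.79 and 5.43 in controls 1 and 3. Neither followed the groups. Peaks numbered 5, 7 and 4 in chimera and 4, 3 and 3 in control libraries (exact permutation p = 0.2), while the covered length overlapped at 1.83 ± 0.210 kb in chimera and 1.87 ± 0.475 kb in control libraries (SD, n = 3 each).

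**Figure D2:**
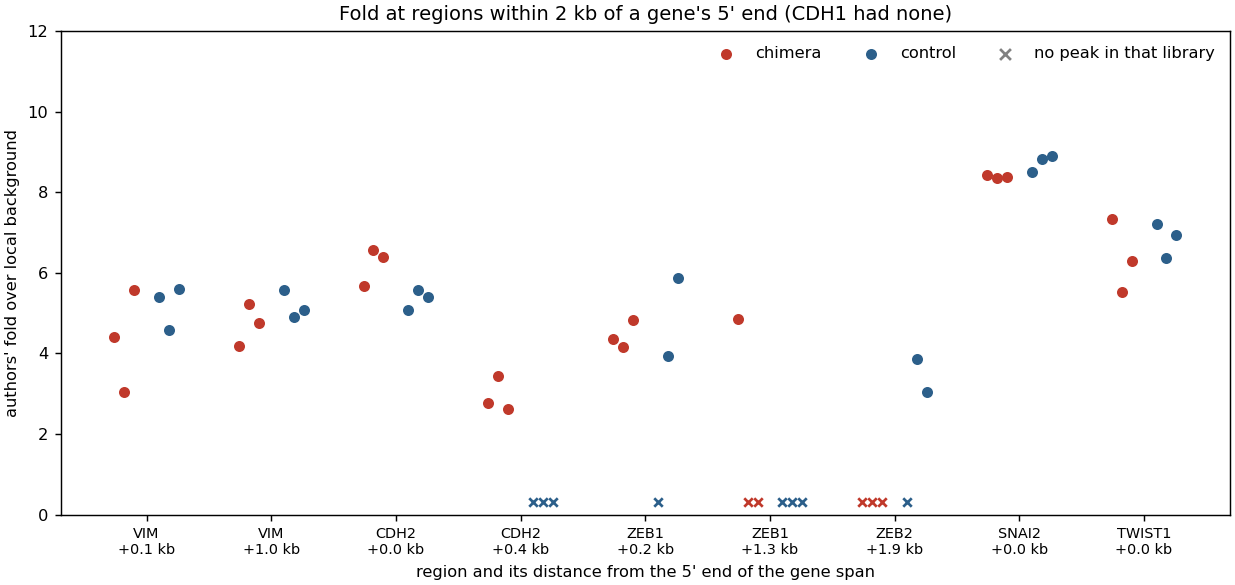
Authors' fold (vertical axis, ratio to local background) at each region within 2 kb of a 5′ end. Each point is 1 library, chimera left of control, and a cross marks a library without a peak. SNAI2 is highest at 8.35 to 8.89, and CDH1 is absent because it had no such region.

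SNAI2, the Slug zinc finger repressor, had the strongest 5′ end of the 7 genes by fold. The region over it, at chr8:49833789-49834739, had folds of 8.42, 8.35 and 8.37 in chimera libraries and 8.51, 8.84 and 8.89 in control libraries. Every chimera value lay below every control value, as in 10.1% of all regions called in 6 libraries, and 2 of the 22 member regions did so. The gap was small, and after centring the groups overlapped and the log2 difference was 0.046 ± 0.15 (SE; limma, adjusted p = 0.942), or -0.062 without centring. The other region that lay below was past the 3′ end of SNAI2, at +43.0 kb and chr8:49789983-49790997, with folds of 5.70, 6.54 and 6.20 in chimera libraries and 8.01, 6.56 and 7.70 in control libraries. It was also below after centring, as were 6.99% of all such regions, with a log2 difference of -0.16 ± 0.15 (SE; limma, adjusted p = 0.745).

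Weaker SNAI2 regions varied between libraries of the same group. The one at +9.73 kb, chr8:49824030-49824274, was called in controls 1 and 3 at folds of 4.81 and 3.70 and in no chimera library, with summit pileups of 16 and 14 reads. The one at +48.6 kb, chr8:49785088-49785404, was called in chimera 2 and 3 at folds of 5.37 and 5.28 and in control 3 at 4.74. Peaks in the window numbered 4, 6 and 5 in chimera and 5, 2 and 5 in control libraries (exact permutation p = 0.7).

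TWIST1, a basic helix-loop-helix factor, had wide open regions at and behind the gene whose values overlapped between the groups. The region over its 5′ end, at chr7:19155697-19157213, had folds of 7.35, 5.53 and 6.30 in chimera libraries and 7.22, 6.38 and 6.94 in control libraries. The log2 difference was 0.00 ± 0.17 (SE), with a 95% interval of -0.37 to 0.37. A second wide region lay past the 3′ end, at +8.59 kb and chr7:19146396-19148413, with folds of 5.74, 5.93 and 5.48 in chimera libraries and 5.79, 6.01 and 7.33 in control libraries. The third by fold lay at +47.2 kb, chr7:19109538-19109810, with folds of 4.04, 4.55 and 3.98 in chimera libraries and 5.09 and 6.17 in controls 1 and 3. Control 2 had no call there, and every chimera fold lay below both called control folds. No share over all regions was taken for that pattern. In a fit that left out the missing library, the log2 difference was -0.20 ± 0.20 (SE; limma, adjusted p = 0.766).

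ZEB1 had peaks only near its 5′ end. The window of 312 kb held 3 regions, or 0.962 per 100 kb against 10.2 per 100 kb for ZEB2, and none was called in all 6 libraries. The first, at +0.182 kb and chr10:31607182-31608277, had folds of 4.35, 4.17 and 4.83 in chimera libraries and of 3.94 and 5.86 in controls 2 and 3, with no call in control 1. The next, at +1.34 kb and chr10:31608345-31608624, was called in chimera 1 alone at a fold of 4.85. The third, at +2.42 kb and chr10:31609421-31609943, had folds of 3.50 and 3.81 in chimera 2 and 3, and of 3.76 and 3.63 in controls 1 and 3.

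Peaks at ZEB1 numbered 3, 3 and 4 in chimera libraries and 1, 1 and 2 in control libraries, without overlap (exact permutation p = 0.1, the smallest possible). Each chimera library had more than 1 peak in some region. Counted as regions, the calls were 2, 2 and 2 in chimera and 1, 1 and 2 in control libraries, which overlap. Of the tiles of 200 kb, 2.92% had more peaks in every chimera than in every control library, and ZEB1 was the only one of the 7 windows to do so. The covered length overlapped, at 1.20, 0.923 and 1.07 kb in chimera and 0.413, 1.06 and 0.989 kb in control libraries (exact permutation p = 0.4). Chimera 1 covered the most of the ZEB1 window and control 1, which had no peak at +0.182 kb, the least. The difference of 2.0 peaks was 1.33 when each peak had to reach a −log10 q of 5 and 0.333 at 10 (exact permutation p = 0.3 and p = 1).

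ZEB2 was the only window in which both the number of peaks and the length they covered did not overlap between the groups. Its window carried 12, 16 and 14 peaks in chimera libraries and 21, 20 and 19 in control libraries, a mean of 14.0 ± 2.00 against 20.0 ± 1.00 (SD, n = 3 each). The groups did not overlap (exact permutation, two-sided, p = 0.1, the smallest that 3 against 3 allows), as in 2.77% of tiles for fewer peaks in every chimera library. Those tiles needed at least 3 regions and were not matched to this window, which held 24. Peaks covered 6.79, 6.91 and 6.82 kb in chimera libraries and 9.06, 7.71 and 10.3 kb in control libraries, also without overlap (exact permutation p = 0.1). Control 2 covered the least of the 6 genome-wide, 38.4 Mb against 43.3 to 46.1 Mb in chimera libraries. In the ZEB2 window it covered more than any chimera library. With lists of equal length, the mean difference, chimera minus control, was -4.33 peaks and -1.69 kb (exact permutation p = 0.1 for each). Per 100000 peaks and per 100000 bp covered genome-wide, it was -6.18 peaks and -4.28 bp (exact permutation p = 0.1 for each). Read depth was not examined, and the cause of the ZEB2 difference was not tested. When each peak had to reach a −log10 q of 10, the difference of -6.0 peaks was -3.0 and that of -2.19 kb was -1.36 kb (exact permutation p = 0.2 and p = 0.3).

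**Figure D3:**
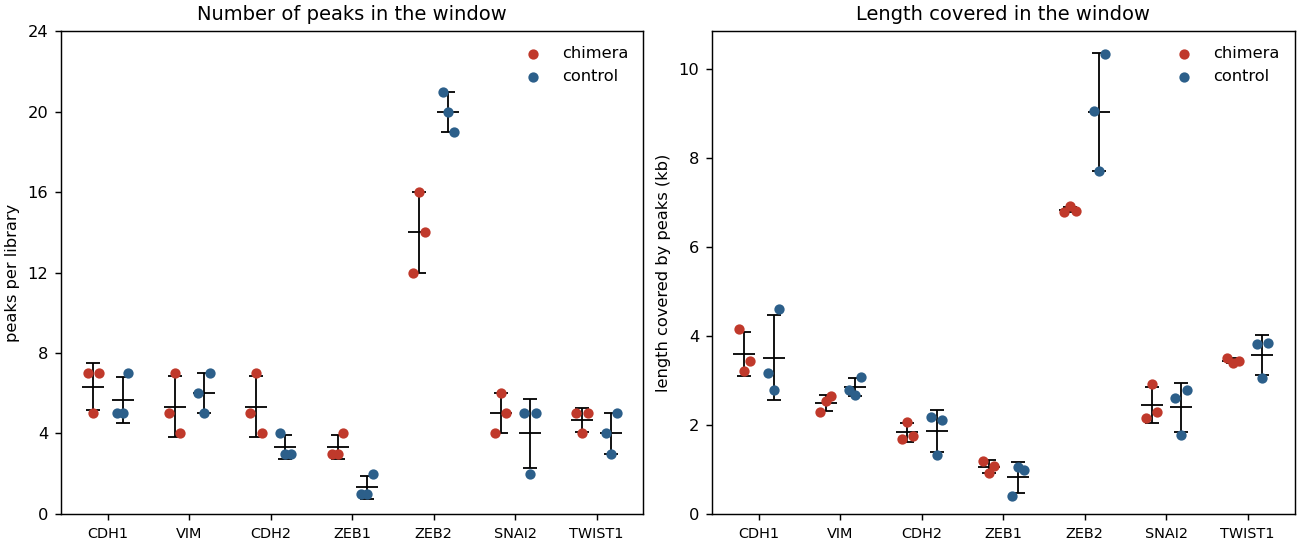
Number of peaks (left) and length covered by peaks in kb (right) in each window. Points are single libraries, chimera left of control, and bars give mean and SD (n = 3). ZEB2 has 12 to 16 peaks in chimera and 19 to 21 in control libraries, and the groups do not overlap.

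A region called in all 6 libraries cannot differ in calls, so by definition the difference in ZEB2 calls lay in the other regions. Some libraries had more peaks than called regions, so peaks that share a region also entered the number of peaks. Covered length within the shared regions was not compared. Of the 24 regions, 9 were called in all 6 libraries, 11 were called in more control than chimera libraries and 2 in more chimera than control libraries. Over all regions of the series, 27.2% were called in more control and 26.2% in more chimera libraries. All 9 shared regions lay at least 42.2 kb from the 5′ end. The strongest lay past the 3′ end at +170 kb, chr2:145107154-145108350, with folds of 7.88, 10.1 and 9.93 in chimera libraries and 9.12, 8.94 and 9.60 in control libraries. Inside the gene, the region at +116 kb (chr2:145161394-145162119) had folds of 6.78, 7.42 and 9.22 in chimera libraries and 10.9, 8.71 and 9.40 in control libraries. The region at +130 kb (chr2:145146760-145147784) had folds of 8.09, 8.27 and 7.76 in chimera libraries and 8.56, 6.65 and 9.44 in control libraries. The groups overlapped in all 3, and the log2 differences over the 9 shared regions ran from -0.21 to 0.17 with none past the threshold.

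The windows' 2 regions called in all control and no chimera libraries were both at ZEB2, against 0.799% of all regions called in this way. One lay inside the gene at +67.6 kb, chr2:145209921-145210430, with folds of 3.88, 4.51 and 3.74 in control libraries and −log10 q of 7.96, 11.0 and 8.15. The nearest chimera peaks were 3.79 to 3.81 kb away. The other lay past the 3′ end at +147 kb, chr2:145130059-145130515, with folds of 3.68, 4.32 and 3.95 in control libraries, and the nearest chimera peaks were 6.78 to 6.88 kb away. Its pileups of 12, 16 and 15 reads were near the lowest of the member peaks, 12, 15 and 14 in the same libraries. Only the region at +67.6 kb was left when each peak had to reach a −log10 q of 5, and neither was at 10.

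The first stretch of ZEB2, part of the same window count, showed the same direction. From 3.26 kb upstream to +30.6 kb lay 9 regions, none of them called in all 6 libraries. Chimera libraries called 2, 5 and 2 of the 9, and control libraries 7, 6 and 6. In the rest of the window, 15 regions, chimera libraries called 9, 11 and 10 and control libraries 11, 13 and 13. The boundary between these stretches was set after the values were seen and lies short of the first region called in all 6 libraries. No share over comparable stretches was taken, so the contrast is a description. Nearest the 5′ end, the region at +1.89 kb (chr2:145275874-145276107) was called in controls 2 and 3 at folds of 3.87 and 3.05 and in no chimera library. Of all regions, 3.85% were called in at least 2 control and no chimera libraries, and 4 of the 61 member regions were, 3 of them at ZEB2 and 1 at SNAI2.

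A missing call is not a closed region, since every list stops at its own threshold. Folds also varied widely within a group. The region at +17.7 kb (chr2:145259886-145260318), named after its values were seen, had a fold of 5.28 in chimera 3 and no call in chimera 1 and 2, against 7.85, 3.75 and 6.03 in control libraries. The long noncoding genes ZEB2-AS1 and LINC01412 are listed within 50 kb of ZEB2 in the GRCh38 table, and regions were not assigned between them.

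Where all 6 libraries had a peak, no member region passed the test for a difference in fold. In a fit over all 56679 such regions, with each library centred on its median, none of the 22 member regions had an adjusted p under 0.05 (limma with Benjamini-Hochberg adjustment), and none had an unadjusted p under 0.05 in either direction. Genome-wide 4 regions (0.00706%) passed as higher and 2 (0.00353%) as lower, and 5.7% and 5.58% had an unadjusted p under 0.05. Of the 22 differences 13 were above 0 and 9 below, with a median of 0.026, against a median of 0.025 over all regions. The 95% intervals differed in width, from -0.26 to 0.29 at CDH1 +23.4 kb to -0.63 to 0.26 at the first VIM region, and the highest upper bound was 0.69, at the 5′ end of CDH2. Before centring, the median over all regions was -0.083 on the log2 scale, chimera over control.

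**Figure D4:**
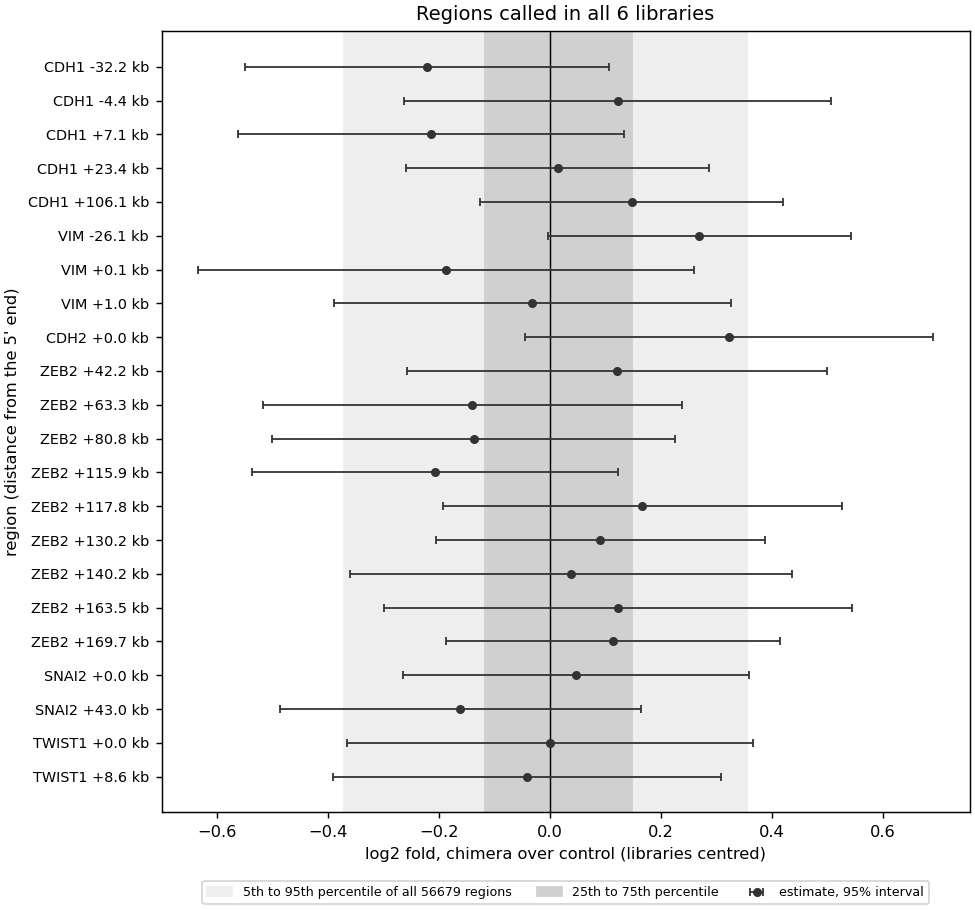
Log2 fold, chimera over control, for the 22 regions called in all 6 libraries (points) with 95% intervals from limma. Grey bands give the spread of the same quantity over all 56679 regions. Every interval crosses 0, and the highest estimate is 0.32, at the 5′ end of CDH2.

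A further 6 member regions were called in 4 or 5 libraries with at least 2 in each group. In a fit that left out the missing libraries, their log2 differences ran from -0.20 at TWIST1 to 0.18 at ZEB1 (limma, adjusted p = 0.766 and 0.806). Both ZEB1 regions named above with calls in each group were among them, and the one at the 5′ end had a difference of -0.045 ± 0.20 (SE; limma, adjusted p = 0.962). Over all 7 windows the peaks numbered 41, 48 and 43 in chimera libraries and 46, 39 and 48 in control libraries (exact permutation p = 1). They covered 21.77, 21.97 and 21.45 kb in chimera libraries and 24.04, 20.39 and 27.74 kb in control libraries (exact permutation p = 0.4), a difference of -2.33 kb that was -0.487 kb without control 3 and -4.16 kb without control 2. In all, 14 window values were compared between groups, 7 of peaks and 7 of covered length, and 4 of them did not overlap between groups. These were peaks at ZEB1 and ZEB2 and covered length at VIM and ZEB2, so ZEB2 enters by both measures. Of the tiles of 200 kb, 2.77% had fewer and 2.92% more peaks in every chimera than in every control library. For covered length the shares were 4.4% and 3.98%. With 3 libraries against 3, none could have reached a p under 0.05.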

How the data were processed

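ATAC-seq peaks were deposited as 1 narrowPeak list per library, called with MACS2 per the file names, so replicates were not pooled. The authors' fold (ratio) was read as the summit pileup over the library's own local background, with 1 added to each. Such a fold is lower than their plain ratio. The −log10 p and −log10 q were deposited beside the fold for each peak. The deposited integer score was not used. The submitters' processing notes name HOMER 4.9 and GRCh38 without a role. Aligner, read filters, transposase shift, MACS2 version and settings: not given in the sources used here. Fold can differ between libraries through depth and noise, which is why libraries were centred.

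Only peaks on the 23 chromosomes 1 to 22 and X entered. Window values were compared by two-sided exact permutation tests. Folds were fitted on the log2 scale with limma 3.58.1 (R 4.3.3, trended prior) over all regions called in 6 libraries and were tested on simulated data. Deposited folds of a region without a call do not exist, so no value was imputed. Python 3.11.15, numpy 2.4.6, pandas 2.3.3 and scipy 1.17.1 were used. Pileups were recovered from fold and p under a Poisson model within 0.005 of −log10 p, for 265 of 265 member peaks. Named regions were those within 2 kb of a 5′ end, the 3 with the highest median fold per window, regions with calls in at least 2 libraries of either group but not in the other group, regions past the test, and the largest log2 difference per window. The members, windows, lists and tests were chosen with earlier results of these data known, and the tiles of 200 kb were added after the data were seen. Nothing in the labels shows how the triplicates were cultured, so p-values measure the spread between these libraries, which may be technical. Alternatives were stricter q, equal list lengths, merging, narrower flanks, other scalings, other fits and leaving out each library.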

Additional observations from a re-analysis of the deposited data

How the results depend on the processing

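No member region passed the fold test in any of the 18 alternatives, and the lowest adjusted p of a named region was 0.316 and of any member 0.275 (limma). Genome-wide, 0 to 4 regions passed as higher and 0 to 11 as lower, and 32 and 40 with the replicate block. The ZEB2 window had fewer peaks and less covered length in chimera libraries in all 13 alternatives (without 1 library, -7.0 to -5.0 peaks and -2.86 to -1.54 kb). The replicate block among these alternatives cannot change a difference of group means. Gained regions, called in all chimera and no control libraries, numbered 1, and 0 with −log10 q of at least 5 or 10, lists of equal length, merging within 1 kb or 50% cover. Lost regions numbered 2, and 1 with −log10 q of at least 5, lists of equal length or flanks of 5 kb, 0 with at least 10, 4 with at least 2 of 3 libraries, and 2 to 4 without 1 library (4 without chimera 2 or without control 3). The total difference in peaks, -0.333, turned to 0.0707 per 100000 peaks and was -3.0 to 1.5 without 1 library; the cause was not tested.

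Smaller differences also turned sign. CDH2 peaks were -0.333 with −log10 q of at least 10, and SNAI2 peaks -0.333 with flanks of 20 or 5 kb. Covered length at SNAI2 was -0.0433 kb with −log10 q of at least 5 and with equal lists, -0.123 with at least 10, -0.0547 and -0.0717 kb with flanks of 20 and 5 kb. At ZEB1 it was -0.0367 kb with at least 10, and at CDH2 0.0741 per 100000 bp covered. Without 1 library it was -0.275 to 0.632 kb at CDH1, -0.314 to 0.115 at CDH2, -0.253 to 0.254 at SNAI2 and -0.386 to 0.00317 at TWIST1. Log2 differences turned to 0.020 at both VIM 5′ regions with merging within 1 kb, and to 0.094 at +1.01 kb with mean peaks. Without centring they were -0.094 at CDH1 +23.4 kb, -0.017 at ZEB2 +130 kb, -0.11 at the TWIST1 and -0.062 at the SNAI2 5′ end. Quantile normalization gave -0.019 at CDH1 +23.4 kb and -0.0015 at the TWIST1 5′ end, which was -0.012 with −log10 q of at least 10, -0.0038 with equal lists and -0.0031 with merging. Without 1 library the ranges were -0.41 to 0.091 and -0.21 to 0.039 at the VIM 5′ regions, -0.13 to 0.10 at CDH1 +23.4 kb, -0.15 to 0.031 at TWIST1 +8.59 kb, -0.13 to 0.14 at the TWIST1 and -0.021 to 0.17 at the SNAI2 5′ end. The cause was not tested.

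Libraries with the same number in both groups did not deviate together (r across regions of -0.0055, -0.0592 and -0.0145), so the numbers were not taken as pairs. A replicate block left 0 member regions past the fold test. It cannot change a difference of group means, so the total difference in peaks was -0.333 by construction. The ZEB2 difference of -6.0 peaks had p = 0.25 by exact sign flips, the smallest that 3 pairs allow. A looser rule for presence asked for the same direction in at least 2 of 3 numbers and the opposite in none. It gave 1 gained and 7 lost regions. No share over all regions was taken for that rule, so these counts are not a result about the genes. Calls near the threshold limit every count of presence at these pileups.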
